A study of Homo sapiens with 12 samples.

Results

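The genes described here encode the DNA replication machinery of human cells. They are 52 named genes out of 19775 genes read by the arrays, and they were found by symbol. A probe set was taken as a gene's when the platform annotation gave it that 1 symbol, and the brightest such probe set, by its mean log2 value over 12 arrays, stood for the gene. By role, 13 belong to the helicase group, which holds the replicative helicase, its cofactors and the paralogue MCM8 (MCM2, MCM3, MCM4, MCM5, MCM6, MCM7, MCM8, MCM10, CDC45, GINS1, GINS2, GINS3 and GINS4) and 11 at origins (ORC1, ORC2, ORC3, ORC4, ORC5, ORC6, CDC6, CDT1, GMNN, DBF4 and CDC7). Another 9 encode polymerase and primase subunits (POLA1, POLA2, PRIM1, PRIM2, POLD1, POLD2, POLD3, POLE and POLE2), and 9 encode the clamp, the clamp loader and the RPA complex that binds single strands (PCNA, RFC1, RFC2, RFC3, RFC4, RFC5, RPA1, RPA2 and RPA3). The remaining members are 3 fork protection genes (TIMELESS, TIPIN and CLSPN), 4 nucleotide supply genes (RRM1, RRM2, TYMS and TK1) and 3 genes of chromatin assembly and maintenance (CHAF1A, CHAF1B and UHRF1). A filter for a log2 intensity of at least 6 in at least 4 of the 12 arrays kept 51 members among 10157 genes. CLSPN, which encodes the checkpoint adaptor claspin, did not pass it: it read between 4.87 and 7.33 on the log2 scale, below 6 in 9 arrays, and was not tested.

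The study asked how depletion of eIF4G1, the scaffold of the cap-binding translation initiation complex, altered the messages on polysomes of MCF10A breast epithelial cells with and without ionising radiation. There were 4 conditions: cells with eIF4G1 silenced (4GKD) given 10 Gy, 4GKD cells given mock treatment, wild type (WT) cells given 10 Gy, and WT cells given mock treatment. Each condition gave 3 RNA preparations, a heavy polysome pool (HMW), a light polysome pool (LMW) and unfractionated RNA (Total), with 1 array per condition and preparation. The WT mock labels describe light pools as RNA with 1 to 3 ribosomes and heavy pools as RNA with 4 or more. Silencing used a doxycycline-inducible short hairpin RNA, and radiation came from a linear accelerator. The labels call the cells breast cancer, whereas MCF10A is usually regarded as a mammary epithelial line that does not form tumours. For the irradiated 4GKD polysome arrays the source text does not mention silencing, which the title and the genotype give. The time between irradiation and harvest, whether WT cells received doxycycline or a control hairpin, and whether the 4GKD line was a clone are unstated in the sources used here.

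Chromosome replication starts when the origin recognition complex, CDC6 and CDT1 load a ring of MCM2 to MCM7 onto DNA, which becomes an active helicase once CDC45 and the GINS proteins join it. Polymerase alpha with primase starts each strand, polymerases delta and epsilon extend it, PCNA holds them on DNA after loading by replication factor C, and RPA covers the single strands. Many of these genes are transcribed together before and during S phase by E2F factors, so their messages are abundant in proliferating epithelial cultures and scarce in resting ones.

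Promoters of the members are shown because the messages are known as a jointly transcribed set. RefSeq promoters (GRCh38.p14, 250 bases before to 50 bases after each annotated start) were at hand for 46 of 52 members, with 61 promoters in all. MCM4, MCM5, GINS4, POLD3, RPA2 and RPA3 had no entry. The letters searched were TTTCCCGC, TTTGGCGC, TTTCGCGC and TTTGCCGC, read on both strands (GCGGGAAA, GCGCCAAA, GCGCGAAA and GCGGCAAA), which are E2F-type sequences. At least 1 match lay in 24 of 61 member promoters (39.3%), against 4.85% of 12219 promoters of other genes that passed the intensity filter and 3.31% of all 35116 promoters. Helicase promoters held one most often, in 8 of 14 (57.1%). CCAAT or its complement ATTGG was found in 36 of 61 member promoters (59.0%), against 34.6% of all promoters and 35.1% of those of other genes that passed the filter, and TTTGAA or TTCAAA, the letters of the cell cycle homology region, in 2 of 61 (3.28%), against 15.2% of all and 10.3% of those other promoters. These matches describe letters in the windows and were not tested as binding sites. The sequences below run 5′ to 3′ on the gene's strand, with E2F-type matches in capitals. MCM2 and MCM6 are shown as helicase members with overlapping matches on both strands (2 in MCM2 and 4 in MCM6). CDC6 is shown as an origin member with 1 match, and ORC2 as an origin member with none of these letters. Other members without a match included ORC1, RRM2 and TK1. Matches were not tested against levels in these arrays.
MCM2 promoter, chr3:127598161-127598460, plus strand: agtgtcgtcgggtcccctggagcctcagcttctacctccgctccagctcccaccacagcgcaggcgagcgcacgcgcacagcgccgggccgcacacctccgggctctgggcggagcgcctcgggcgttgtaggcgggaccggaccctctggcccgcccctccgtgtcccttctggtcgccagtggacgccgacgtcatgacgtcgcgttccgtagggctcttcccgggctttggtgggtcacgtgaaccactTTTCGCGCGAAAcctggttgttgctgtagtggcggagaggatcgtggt
MCM6 promoter, chr2:135876394-135876693, minus strand: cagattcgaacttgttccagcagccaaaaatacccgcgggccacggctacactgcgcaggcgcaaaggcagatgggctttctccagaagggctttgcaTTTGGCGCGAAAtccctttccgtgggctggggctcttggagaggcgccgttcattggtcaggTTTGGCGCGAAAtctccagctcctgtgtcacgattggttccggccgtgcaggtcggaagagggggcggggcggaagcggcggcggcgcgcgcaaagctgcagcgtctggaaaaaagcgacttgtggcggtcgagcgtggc
CDC6 promoter, chr17:40287629-40287928, plus strand: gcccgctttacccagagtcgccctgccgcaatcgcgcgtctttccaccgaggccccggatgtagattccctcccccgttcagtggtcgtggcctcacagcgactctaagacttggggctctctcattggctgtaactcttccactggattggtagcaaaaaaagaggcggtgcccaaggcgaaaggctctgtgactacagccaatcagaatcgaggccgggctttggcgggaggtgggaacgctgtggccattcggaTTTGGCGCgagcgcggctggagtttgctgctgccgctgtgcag
ORC2 promoter, chr2:200963611-200963910, minus strand: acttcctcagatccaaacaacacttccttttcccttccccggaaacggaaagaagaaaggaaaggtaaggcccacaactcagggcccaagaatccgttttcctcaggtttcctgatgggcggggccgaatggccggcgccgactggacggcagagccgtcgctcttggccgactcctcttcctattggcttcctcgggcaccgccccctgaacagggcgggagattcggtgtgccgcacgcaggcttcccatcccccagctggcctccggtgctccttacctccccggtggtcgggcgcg

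The silenced gene was checked first. EIF4G1 read 20.4% of WT in 4GKD 10 Gy and 15.9% in 4GKD mock Total RNA. It read 9.43% in the HMW pool of irradiated and 6.36% in that of mock 4GKD cells, and 23.5% in the LMW pool of irradiated and 26.8% in that of mock 4GKD cells. Of 12 basal epithelial genes listed, 8 were measured, and 7 of these were at 6 or above in all arrays. Of 6 luminal epithelial genes measured, 3 were at 6 or above and 2 below 6 in all arrays. Among the other lists, 3 of 3 endothelial, 2 of 4 fibroblast and 2 of 3 leukocyte genes were below 6 in all arrays. The WT mock polysome arrays stood apart from the others. Relative to Total RNA of the same cells, 12.3% of all genes were at least 2-fold higher and 21.9% at least 2-fold lower in the WT mock HMW array, whereas the other 3 conditions had 3.92% to 6.51% higher and 6.14% to 9.05% lower. The same shares for the LMW array were 19.7% and 29.8% in WT mock cells, against 8.67% to 11.1% and 16.2% to 17.7% in the others. Counts of calls between preparations are therefore also given without the WT mock pair, and knockdown medians also for the 10 Gy pair alone, which uses no WT mock array. With 1 array per cell of the design and no statement that arrays came from separate cultures, the p-values reflect only how much these arrays varied, which may be technical variation.

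Heavy polysomes held more replication messages, relative to Total RNA, than the typical gene. Of 51 members, 33 were higher in HMW than in Total RNA and none was lower, in a limma fit over the 4 conditions with condition as a block (Benjamini-Hochberg adjusted p below 0.05). Of all genes tested, 17.4% were called higher and 18.6% lower in this comparison. The members' median log2 difference was 0.75, against 0.03 over all genes, and 38 members had an unadjusted p below 0.05. Where a ± sign follows a log2 difference below, it gives the standard error of the fit that produced that difference. Helicase genes led, with 11 of 13 called higher (median 1.18), followed by polymerase genes with 7 of 9 (median 0.96), nucleotide genes with 4 of 4 (0.94) and chromatin genes with 3 of 3 (0.84). Clamp, loader and RPA genes had 4 of 9 (0.50), fork genes 1 of 2, and origin genes 3 of 11 (0.26). Without the WT mock pair all 33 were called again and 8 members were added, not all of them higher, which gave 40 called higher. Without each of the other pairs 23 to 24 were called higher, and without the condition block 4. The shares of all genes given above belong to the fit with all 4 pairs. Array intensities give each message's share of the RNA loaded. In the comparisons between genotypes or doses below, fewer cells in S phase and less RNA per cell therefore cannot be told apart. Mitosis genes, a list of 18 that mark dividing cells, moved alongside, with 9 called higher, none lower and a median of 0.86. Their part in the members' values was not tested.

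**Figure D1:**
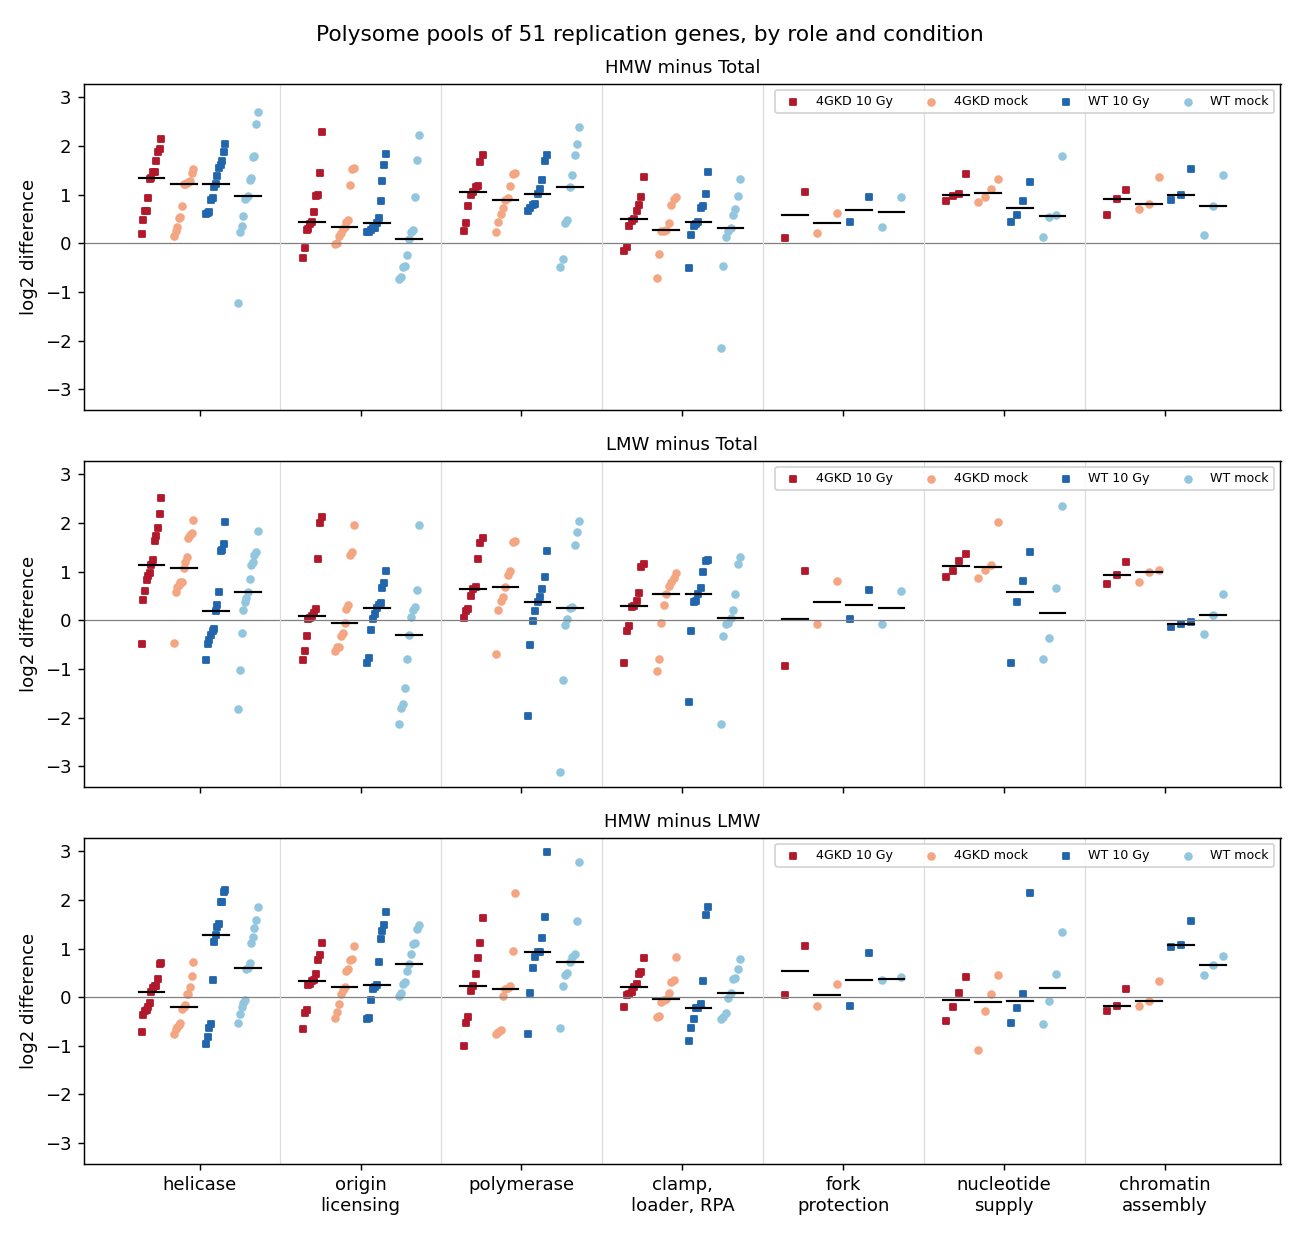
Log2 difference between RNA preparations of the same cells for the 51 replication genes, grouped by role along the horizontal axis, with HMW minus Total in the top panel, LMW minus Total in the middle and HMW minus LMW at the bottom. Each point is 1 gene in 1 condition and black bars are medians of a role in that condition. Helicase points of HMW minus Total lie above 0 except for MCM8 in WT mock cells, and in the bottom panel the helicase medians are higher in both WT conditions than in both 4GKD conditions.

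Among helicase genes, MCM2, a subunit of the loaded ring, had the largest HMW difference. HMW levels of MCM2 were 9.31 in 4GKD 10 Gy and 9.98 in 4GKD mock cells, against 11.32 in WT 10 Gy and 12.42 in WT mock cells. LMW levels of MCM2 were 9.07 in 4GKD 10 Gy and 10.14 in 4GKD mock cells, against 9.12 in WT 10 Gy and 10.58 in WT mock cells. Total levels of MCM2 were 7.44 in 4GKD 10 Gy and 8.45 in 4GKD mock cells, against 9.29 in WT 10 Gy and 9.72 in WT mock cells. The HMW value exceeded the Total value in all 4 conditions, by least in 4GKD mock cells, and the difference was 2.04 ± 0.21, adjusted p = 0.00112. MCM5, which closes the ring beside MCM2, was the next. HMW levels of MCM5 were 8.38 in 4GKD 10 Gy and 9.27 in 4GKD mock cells, against 10.20 in WT 10 Gy and 11.52 in WT mock cells. LMW levels of MCM5 were 8.74 in 4GKD 10 Gy and 9.88 in 4GKD mock cells, against 8.68 in WT 10 Gy and 10.41 in WT mock cells. Total levels of MCM5 were 6.22 in 4GKD 10 Gy and 7.82 in 4GKD mock cells, against 8.49 in WT 10 Gy and 9.06 in WT mock cells. Its HMW and LMW values lay above its Total value in each of the 4 conditions, and the HMW difference was 1.94 ± 0.21, adjusted p = 0.0013. MCM3, MCM4, MCM6 and MCM7, the other ring subunits, were also called higher in HMW than in Total RNA, with differences of 1.57, 0.96, 1.18 and 1.52.

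GINS2 belongs to the complex that activates the loaded ring. HMW levels of GINS2 were 6.97 in 4GKD 10 Gy and 8.30 in 4GKD mock cells, against 9.47 in WT 10 Gy and 10.67 in WT mock cells. LMW levels of GINS2 were 7.23 in 4GKD 10 Gy and 9.07 in 4GKD mock cells, against 10.43 in WT 10 Gy and 11.21 in WT mock cells. Total levels of GINS2 were 6.32 in 4GKD 10 Gy and 7.77 in 4GKD mock cells, against 8.86 in WT 10 Gy and 9.38 in WT mock cells. In all 4 conditions its LMW value was above its HMW value, and both were above Total. The HMW difference was 0.77 ± 0.20, adjusted p = 0.0196, and this call was lost without the WT 10 Gy pair (0.83, adjusted p = 0.0701), the 4GKD mock pair (0.85, adjusted p = 0.0513) or the 4GKD 10 Gy pair (0.81, adjusted p = 0.0565). MCM8, an MCM paralogue known from recombination repair and not part of the loaded ring, had the smallest HMW difference of the group. HMW levels of MCM8 were 6.42 in 4GKD 10 Gy and 7.11 in 4GKD mock cells, against 7.87 in WT 10 Gy and 6.18 in WT mock cells. LMW levels of MCM8 were 5.73 in 4GKD 10 Gy and 6.37 in 4GKD mock cells, against 6.73 in WT 10 Gy and 5.59 in WT mock cells. Total levels of MCM8 were 6.22 in 4GKD 10 Gy and 6.84 in 4GKD mock cells, against 7.23 in WT 10 Gy and 7.41 in WT mock cells. HMW levels overlapped Total levels, and WT mock cells alone had a lower HMW than Total value. The difference was -0.03 ± 0.30, adjusted p = 0.947. GINS1 was the other helicase gene not called (0.45 ± 0.16, adjusted p = 0.0615).

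Origin genes were divided. ORC1, CDC6 and CDT1 were called higher in HMW than in Total RNA, whereas ORC2, ORC3, ORC4, ORC5, ORC6, GMNN, DBF4 and CDC7 were not. CDT1, which brings the MCM ring to origins, had the largest difference. HMW levels of CDT1 were 6.76 in 4GKD 10 Gy and 7.75 in 4GKD mock cells, against 9.12 in WT 10 Gy and 9.97 in WT mock cells. LMW levels of CDT1 were 7.42 in 4GKD 10 Gy and 8.19 in 4GKD mock cells, against 8.87 in WT 10 Gy and 9.70 in WT mock cells. Total levels of CDT1 were 5.30 in 4GKD 10 Gy and 6.23 in 4GKD mock cells, against 7.85 in WT 10 Gy and 7.74 in WT mock cells. Both polysome pools were above Total RNA in all conditions, and the HMW difference was 1.62 ± 0.21, adjusted p = 0.00172. CDC6, the ATPase that loads the ring, differed by 1.59 ± 0.23, adjusted p = 0.00262. HMW levels of CDC6 were 6.95 in 4GKD 10 Gy and 8.18 in 4GKD mock cells, against 9.06 in WT 10 Gy and 8.93 in WT mock cells. LMW levels of CDC6 were 6.67 in 4GKD 10 Gy and 8.04 in 4GKD mock cells, against 7.71 in WT 10 Gy and 8.25 in WT mock cells. Total levels of CDC6 were 4.67 in 4GKD 10 Gy and 6.64 in 4GKD mock cells, against 7.46 in WT 10 Gy and 7.99 in WT mock cells. The lowest of its 12 values was that of irradiated 4GKD Total RNA. ORC2, a core subunit of the origin recognition complex, had the smallest difference of the group. HMW levels of ORC2 were 7.96 in 4GKD 10 Gy and 8.41 in 4GKD mock cells, against 8.20 in WT 10 Gy and 7.51 in WT mock cells. LMW levels of ORC2 were 7.62 in 4GKD 10 Gy and 7.87 in 4GKD mock cells, against 7.47 in WT 10 Gy and 6.62 in WT mock cells. Total levels of ORC2 were 8.25 in 4GKD 10 Gy and 8.41 in 4GKD mock cells, against 7.67 in WT 10 Gy and 8.003 in WT mock cells. HMW and Total levels of ORC2 overlapped, with a difference of -0.07 ± 0.21, adjusted p = 0.827.

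Polymerase genes called higher in HMW were POLA1, POLA2, PRIM1, PRIM2, POLD1, POLE and POLE2, and those not called were POLD2 and POLD3. POLE, the catalytic subunit of the leading-strand polymerase epsilon, had the largest difference of the group. HMW levels of POLE were 8.38 in 4GKD 10 Gy and 8.64 in 4GKD mock cells, against 8.72 in WT 10 Gy and 9.53 in WT mock cells. LMW levels of POLE were 7.26 in 4GKD 10 Gy and 7.70 in 4GKD mock cells, against 7.08 in WT 10 Gy and 7.97 in WT mock cells. Total levels of POLE were 6.57 in 4GKD 10 Gy and 7.21 in 4GKD mock cells, against 7.60 in WT 10 Gy and 7.72 in WT mock cells. All HMW values lay above all LMW and Total values, and the HMW difference was 1.54 ± 0.20, adjusted p = 0.00168. POLD3, an accessory subunit of polymerase delta, had the smallest. HMW levels of POLD3 were 7.41 in 4GKD 10 Gy and 7.92 in 4GKD mock cells, against 8.82 in WT 10 Gy and 7.83 in WT mock cells. LMW levels of POLD3 were 7.18 in 4GKD 10 Gy and 7.70 in 4GKD mock cells, against 8.003 in WT 10 Gy and 7.10 in WT mock cells. Total levels of POLD3 were 6.99 in 4GKD 10 Gy and 7.48 in 4GKD mock cells, against 8.02 in WT 10 Gy and 8.32 in WT mock cells. HMW and Total levels of POLD3 overlapped, and the difference was 0.29 ± 0.24, adjusted p = 0.348. POLA1, which carries the polymerase activity that extends primers, differed by 0.95 ± 0.32, adjusted p = 0.0474, a call lost without the WT 10 Gy pair (0.94, adjusted p = 0.152), the 4GKD mock pair (0.79, adjusted p = 0.152) or the 4GKD 10 Gy pair (0.71, adjusted p = 0.149).

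In the clamp group, RPA1, the large subunit of the single-strand binding complex, had the largest difference. HMW levels of RPA1 were 11.26 in 4GKD 10 Gy and 11.15 in 4GKD mock cells, against 12.12 in WT 10 Gy and 11.99 in WT mock cells. LMW levels of RPA1 were 11.00 in 4GKD 10 Gy and 11.18 in 4GKD mock cells, against 10.44 in WT 10 Gy and 11.20 in WT mock cells. Total levels of RPA1 were 9.91 in 4GKD 10 Gy and 10.20 in 4GKD mock cells, against 10.65 in WT 10 Gy and 10.67 in WT mock cells. All HMW values lay above all Total values, and the difference was 1.27 ± 0.14, adjusted p = 0.0013. RFC1, the large subunit of the clamp loader, had the smallest. HMW levels of RFC1 were 7.70 in 4GKD 10 Gy and 7.69 in 4GKD mock cells, against 8.60 in WT 10 Gy and 6.35 in WT mock cells. LMW levels of RFC1 were 6.90 in 4GKD 10 Gy and 6.87 in 4GKD mock cells, against 6.75 in WT 10 Gy and 6.37 in WT mock cells. Total levels of RFC1 were 7.78 in 4GKD 10 Gy and 7.91 in 4GKD mock cells, against 8.43 in WT 10 Gy and 8.51 in WT mock cells. HMW and Total levels of RFC1 overlapped, and the WT mock HMW array was the lowest of the 12. Its difference was -0.57 ± 0.37, adjusted p = 0.244. PCNA, the clamp itself, ranged from 11.00 to 12.81 over the 12 arrays and was not called (0.28 ± 0.10, adjusted p = 0.0665). RFC5, a small loader subunit, was called with 0.63 ± 0.18, adjusted p = 0.0322, but another of its probe sets differed by -1.40, and the median of its probe sets gave -0.41.

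At the fork, TIMELESS, which couples helicase and polymerase, was called higher in HMW RNA (0.89 ± 0.18, adjusted p = 0.00743), and its partner TIPIN was not (0.27 ± 0.17, adjusted p = 0.246). HMW levels of TIMELESS were 8.15 in 4GKD 10 Gy and 8.50 in 4GKD mock cells, against 9.43 in WT 10 Gy and 9.60 in WT mock cells. LMW levels of TIMELESS were 8.11 in 4GKD 10 Gy and 8.69 in 4GKD mock cells, against 8.52 in WT 10 Gy and 9.25 in WT mock cells. Total levels of TIMELESS were 7.10 in 4GKD 10 Gy and 7.87 in 4GKD mock cells, against 8.49 in WT 10 Gy and 8.65 in WT mock cells. The WT values of TIMELESS in Total RNA were close to its 4GKD HMW values. HMW levels of TIPIN were 8.001 in 4GKD 10 Gy and 8.65 in 4GKD mock cells, against 8.38 in WT 10 Gy and 8.81 in WT mock cells. LMW levels of TIPIN were 6.95 in 4GKD 10 Gy and 8.38 in 4GKD mock cells, against 8.56 in WT 10 Gy and 8.39 in WT mock cells. Total levels of TIPIN were 7.90 in 4GKD 10 Gy and 8.45 in 4GKD mock cells, against 7.95 in WT 10 Gy and 8.48 in WT mock cells. The TIPIN values overlapped between all 3 preparations. 

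The nucleotide supply genes were called higher as a complete group. RRM1 encodes the large subunit of ribonucleotide reductase. HMW levels of RRM1 were 11.07 in 4GKD 10 Gy and 11.60 in 4GKD mock cells, against 12.62 in WT 10 Gy and 11.95 in WT mock cells. LMW levels of RRM1 were 10.66 in 4GKD 10 Gy and 11.15 in 4GKD mock cells, against 10.48 in WT 10 Gy and 10.62 in WT mock cells. Total levels of RRM1 were 9.65 in 4GKD 10 Gy and 10.27 in 4GKD mock cells, against 11.36 in WT 10 Gy and 11.42 in WT mock cells. In HMW and Total RNA both 4GKD values of RRM1 were below both WT values, and in LMW RNA both were above. The HMW difference was 1.13 ± 0.17, adjusted p = 0.0028. RRM2 encodes the small subunit, whose amount follows S phase. HMW levels of RRM2 were 10.61 in 4GKD 10 Gy and 11.90 in 4GKD mock cells, against 12.46 in WT 10 Gy and 12.34 in WT mock cells. LMW levels of RRM2 were 10.52 in 4GKD 10 Gy and 11.83 in 4GKD mock cells, against 12.39 in WT 10 Gy and 11.85 in WT mock cells. Total levels of RRM2 were 9.63 in 4GKD 10 Gy and 10.79 in 4GKD mock cells, against 12.02 in WT 10 Gy and 12.22 in WT mock cells. RRM2 was lowest in 4GKD 10 Gy cells in each preparation, and its HMW difference was 0.66 ± 0.18, adjusted p = 0.0238, a call lost without the WT 10 Gy pair (0.74, adjusted p = 0.0776), the 4GKD mock pair (0.51, adjusted p = 0.0942) or the 4GKD 10 Gy pair (0.56, adjusted p = 0.058). UHRF1, which reads hemimethylated DNA behind the fork, had the largest difference of the chromatin genes (1.35 ± 0.15, adjusted p = 0.00128). CHAF1A, a subunit of the replication-coupled histone chaperone, had the smallest (0.61 ± 0.19, adjusted p = 0.0395). HMW levels of CHAF1A were 8.25 in 4GKD 10 Gy and 8.80 in 4GKD mock cells, against 9.44 in WT 10 Gy and 9.02 in WT mock cells. LMW levels of CHAF1A were 8.42 in 4GKD 10 Gy and 8.98 in 4GKD mock cells, against 8.40 in WT 10 Gy and 8.56 in WT mock cells. Total levels of CHAF1A were 7.67 in 4GKD 10 Gy and 7.99 in 4GKD mock cells, against 8.55 in WT 10 Gy and 8.84 in WT mock cells. CHAF1A genotypes overlapped across doses in LMW RNA and stood apart in HMW and Total RNA. In LMW RNA 4GKD minus WT was 0.02 at 10 Gy and 0.42 in mock cells. The CHAF1A call was lost without the WT 10 Gy pair (0.52, adjusted p = 0.155), the 4GKD mock pair (0.55, adjusted p = 0.153) or the 4GKD 10 Gy pair (0.62, adjusted p = 0.126). Of the 33 calls over all roles, 23 were made whichever pair was left out.

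In light polysomes 19 members were called higher than in Total RNA and 5 lower, where 28.5% of all genes were called higher and 28.1% lower. Their median difference was 0.48, against 0.01 over all genes. Helicase genes again led, with 8 called higher and 1 lower. Between GINS4 (1.53 ± 0.28, adjusted p = 0.00334) and MCM8 (-0.82 ± 0.26, adjusted p = 0.0258) lay the helicase genes, and between CDT1 (1.76 ± 0.25, adjusted p = 0.0016) and CDC7 (-0.84 ± 0.33, adjusted p = 0.0532) the origin genes. GINS4 is another subunit of the complex that activates the ring, and the MCM8 call was lost without the WT 10 Gy pair (-0.93, adjusted p = 0.0555). Of the origin genes ORC1, CDC6 and CDT1 were higher and ORC2 and ORC3 lower, and CDC7, the kinase that fires origins, had the lowest value without passing the test. The calls of ORC2 (-0.46, adjusted p = 0.0976) and ORC3 (-0.51, adjusted p = 0.095) were lost without the WT mock pair, as was that of MCM2 (1.05, adjusted p = 0.0934), and those of ORC2 (-0.52, adjusted p = 0.0936) and ORC3 (-0.65, adjusted p = 0.0584) also with arrays centred on their median. Between POLA2 (1.48 ± 0.24, adjusted p = 0.00245) and POLA1 (-1.43 ± 0.44, adjusted p = 0.0232) lay the polymerase genes, and between RFC2 (1.14 ± 0.22, adjusted p = 0.00402) and RFC1 (-1.44 ± 0.26, adjusted p = 0.00333) the clamp, loader and RPA genes. POLA2 is the regulatory and POLA1 the catalytic subunit of polymerase alpha, and RFC2 and RFC1 are a small and the large subunit of the clamp loader. POLA1 lay below 6 in all 4 LMW arrays, where differences are compressed, and its call was lost without 1 of the WT pairs, either mock (-0.87, adjusted p = 0.121) or 10 Gy (-1.25, adjusted p = 0.131). Between TK1 (1.79 ± 0.25, adjusted p = 0.00165) and RRM1 (0.05 ± 0.36, adjusted p = 0.91) lay the nucleotide genes, between UHRF1 (0.62 ± 0.24, adjusted p = 0.0563) and CHAF1A (0.33 ± 0.28, adjusted p = 0.335) the chromatin genes, and TIMELESS (0.62 ± 0.24, adjusted p = 0.0583) and TIPIN (-0.12 ± 0.28, adjusted p = 0.73) were the fork genes. TK1 is the thymidine salvage kinase, and no fork or chromatin gene was called. Leaving out the WT mock pair gave 20 members higher and 2 lower, and leaving out the WT 10 Gy pair 22 higher and 3 lower. Without the 4GKD mock pair there were 13 higher and 5 lower, and without the 4GKD 10 Gy pair 15 higher and 5 lower. The 18 mitosis genes had 4 calls higher and 3 lower, and their part was not tested.

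Set directly against each other, heavy polysomes exceeded light ones in 14 members and fell short in 4. Of all genes tested, 19.6% were called higher and 21.1% lower in HMW than in LMW RNA. The members' median was 0.33, against -0.06 over all genes. POLA1 had the largest difference (2.39 ± 0.24, adjusted p = 0.0017). HMW levels of POLA1 were 7.13 in 4GKD 10 Gy and 7.66 in 4GKD mock cells, against 7.72 in WT 10 Gy and 7.03 in WT mock cells. LMW levels of POLA1 were 5.50 in 4GKD 10 Gy and 5.52 in 4GKD mock cells, against 4.74 in WT 10 Gy and 4.24 in WT mock cells. Total levels of POLA1 were 5.45 in 4GKD 10 Gy and 6.21 in 4GKD mock cells, against 6.71 in WT 10 Gy and 7.36 in WT mock cells. Each HMW value of POLA1 was above each LMW value. Between MCM10 (1.17 ± 0.27, adjusted p = 0.0137) and GINS2 (-0.63 ± 0.16, adjusted p = 0.0187) lay the helicase genes, and between ORC3 (1.20 ± 0.20, adjusted p = 0.00603) and ORC5 (-0.26 ± 0.14, adjusted p = 0.164) the origin genes. MCM10 helps start the fork, and ORC3 and ORC5 are origin recognition subunits. DBF4 and CDC7, the kinase pair that fires origins, were also called higher. Between POLA1 (2.39 ± 0.24, adjusted p = 0.0017) and POLD2 (-0.78 ± 0.13, adjusted p = 0.00596) lay the polymerase genes, and between RFC1 (0.86 ± 0.28, adjusted p = 0.0447) and RPA2 (-0.35 ± 0.16, adjusted p = 0.119) the clamp, loader and RPA genes. POLD2, the small subunit of polymerase delta, was lower in HMW, as were GINS2, GINS4 and TK1. Between RRM1 (1.08 ± 0.29, adjusted p = 0.0233) and TK1 (-0.66 ± 0.15, adjusted p = 0.0141) lay the nucleotide genes, between UHRF1 (0.73 ± 0.23, adjusted p = 0.043) and CHAF1A (0.28 ± 0.23, adjusted p = 0.344) the chromatin genes, and TIPIN (0.39 ± 0.21, adjusted p = 0.173) and TIMELESS (0.28 ± 0.20, adjusted p = 0.287) were the fork genes. Without the WT mock pair 6 members were higher and 2 lower. The calls lost were MCM3, MCM10, ORC2, DBF4, POLD3, RFC3, RRM1 and UHRF1 among the higher (adjusted p = 0.147, 0.0678, 0.07, 0.0619, 0.156, 0.13, 0.0962 and 0.145 in that order) and GINS2 and TK1 among the lower (adjusted p = 0.0672 and 0.0534). Without the 4GKD mock pair 10 were higher and 1 lower, with DBF4 again lost (adjusted p = 0.0519), and RFC1 was lost without that pair (0.88, adjusted p = 0.106), the WT 10 Gy pair (0.54, adjusted p = 0.0724) or the 4GKD 10 Gy pair (0.89, adjusted p = 0.0885). Called whichever pair was left out were MCM8, ORC3, CDC7, POLA1, POLE and POLD2. Mitosis genes had 10 of 18 higher and 1 lower, and their part was not tested.

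Silencing of eIF4G1 went with lower levels of nearly all replication messages in unfractionated RNA. In the fit over the 4 Total arrays, with genotype and dose as terms, 45 of 51 members fell in 4GKD cells and 1 rose, where 19.8% of all genes were called lower and 20.7% higher. The members' median was -1.18, against 0.03 over all genes. By role, 13 of 13 helicase genes fell (median -1.58), 7 of 11 origin genes (-1.37), 8 of 9 polymerase genes (-0.92), 9 of 9 clamp genes (-1.03), 1 of 2 fork genes, 4 of 4 nucleotide genes (-1.89) and 3 of 3 chromatin genes (-0.99). ORC2 was the gene that rose (0.50 ± 0.11, adjusted p = 0.00533), though its other probe set gave -0.51 and the median of its probe sets -0.00. ORC3, ORC4, ORC5, POLD2 and TIPIN were not called. The fit has 1 residual degree of freedom, which is the difference between the genotypes' 10 Gy responses. The 10 Gy pair alone had a member median of -1.53 and the mock pair alone -0.91. With all 12 arrays in 1 fit 8 members were called lower.

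Within roles the values in Total RNA ran as follows. Between MCM8 (-0.78 ± 0.14, adjusted p = 0.00187) and GINS2 (-2.07 ± 0.18, adjusted p = 3.38e-05) lay the helicase genes, and between ORC2 (0.50 ± 0.11, adjusted p = 0.00533) and CDC6 (-2.07 ± 0.27, adjusted p = 0.00025) the origin genes. GINS2 and CDC6 fell most. Between POLD2 (-0.02 ± 0.11, adjusted p = 0.903) and POLE2 (-2.03 ± 0.19, adjusted p = 4.37e-05) lay the polymerase genes, and between RPA2 (-0.59 ± 0.13, adjusted p = 0.00602) and RFC3 (-1.49 ± 0.14, adjusted p = 3.66e-05) the clamp, loader and RPA genes. POLE2 is a subunit of polymerase epsilon and RFC3 a small loader subunit. Between RRM1 (-1.43 ± 0.12, adjusted p = 3.13e-05) and TK1 (-1.99 ± 0.14, adjusted p = 1.19e-05) lay the nucleotide genes, between CHAF1A (-0.86 ± 0.10, adjusted p = 0.000188) and UHRF1 (-1.76 ± 0.14, adjusted p = 1.82e-05) the chromatin genes, and TIPIN (-0.04 ± 0.10, adjusted p = 0.805) and TIMELESS (-1.08 ± 0.14, adjusted p = 0.000326) were the fork genes. TK1 and UHRF1 fell most in their roles. A second, dimmer probe set of GINS2 differed by only 0.18 in Total, 0.06 in LMW and -0.19 in HMW RNA, so the fall of this gene rests on the brighter set. HMW levels of POLE2 were 5.70 in 4GKD 10 Gy and 6.48 in 4GKD mock cells, against 7.84 in WT 10 Gy and 7.83 in WT mock cells. LMW levels of POLE2 were 4.89 in 4GKD 10 Gy and 6.45 in 4GKD mock cells, against 7.24 in WT 10 Gy and 7.33 in WT mock cells. Total levels of POLE2 were 4.65 in 4GKD 10 Gy and 5.77 in 4GKD mock cells, against 7.06 in WT 10 Gy and 7.42 in WT mock cells. In each preparation both 4GKD values of POLE2 were below both WT values, and 4 of the 4GKD values were under 6. HMW levels of RFC3 were 8.60 in 4GKD 10 Gy and 9.39 in 4GKD mock cells, against 10.31 in WT 10 Gy and 9.94 in WT mock cells. LMW levels of RFC3 were 8.09 in 4GKD 10 Gy and 9.02 in 4GKD mock cells, against 9.98 in WT 10 Gy and 9.37 in WT mock cells. Total levels of RFC3 were 7.82 in 4GKD 10 Gy and 8.48 in 4GKD mock cells, against 9.58 in WT 10 Gy and 9.69 in WT mock cells. RFC3 values of 4GKD and WT cells stood apart in all 3 preparations, with irradiated 4GKD cells lowest. HMW levels of TK1 were 7.04 in 4GKD 10 Gy and 7.83 in 4GKD mock cells, against 9.31 in WT 10 Gy and 10.40 in WT mock cells. LMW levels of TK1 were 7.54 in 4GKD 10 Gy and 8.91 in 4GKD mock cells, against 9.84 in WT 10 Gy and 10.95 in WT mock cells. Total levels of TK1 were 6.17 in 4GKD 10 Gy and 6.88 in 4GKD mock cells, against 8.44 in WT 10 Gy and 8.59 in WT mock cells. TK1 was lower in 4GKD than in WT cells throughout. HMW levels of UHRF1 were 9.41 in 4GKD 10 Gy and 10.86 in 4GKD mock cells, against 11.92 in WT 10 Gy and 12.34 in WT mock cells. LMW levels of UHRF1 were 9.24 in 4GKD 10 Gy and 10.52 in 4GKD mock cells, against 10.35 in WT 10 Gy and 11.49 in WT mock cells. Total levels of UHRF1 were 8.31 in 4GKD 10 Gy and 9.49 in 4GKD mock cells, against 10.38 in WT 10 Gy and 10.94 in WT mock cells. UHRF1 genotypes were separate in HMW and Total RNA. In LMW RNA they overlapped across doses, but 4GKD minus WT was -1.11 at 10 Gy and -0.96 in mock cells. Mitosis genes fell too, 18 of 18 in Total RNA with a median of -2.02. The log2 of their summed linear intensities, in which the brightest genes weigh most, was 11.62 in 4GKD 10 Gy and 12.81 in 4GKD mock Total RNA. It was 14.27 in both WT Total arrays. CDKN1A, the p53-induced cell cycle inhibitor, rose by 1.08, adjusted p = 1.3e-05. The part of these genes in the members' values was not tested.

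**Figure D2:**
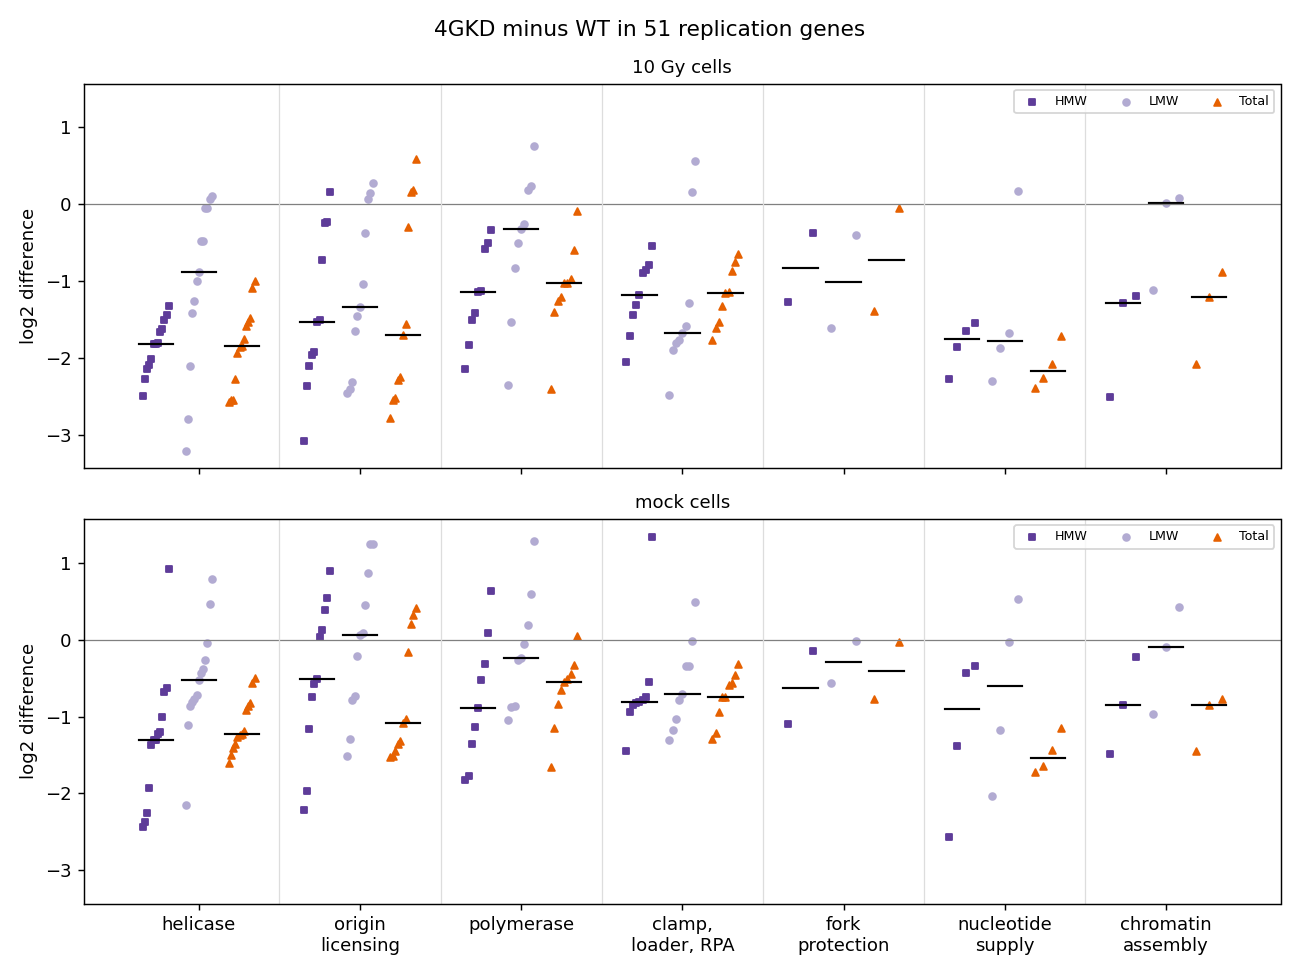
Log2 difference, 4GKD minus WT, of the 51 replication genes by role, with 10 Gy cells in the upper panel and mock cells in the lower. Each point is 1 gene in HMW, LMW or Total RNA (purple squares, pale circles and orange triangles) and black bars are medians. HMW and Total helicase points sit well below 0 in the 10 Gy panel (role medians -1.82 and -1.84), while the LMW points spread up to 0.11.

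The fall also appeared on heavy polysomes, and in fewer genes on light ones. In HMW RNA 31 of 51 members fell in 4GKD cells and none rose, with a median of -1.19, where 4.09% of all genes were called lower. The 10 Gy pair alone had an HMW median of -1.51 with 39 members at least 2-fold lower, where 6.21% of all genes were. The mock pair alone had an HMW median of -0.84, with 22 members at least 2-fold lower and 1 at least 2-fold higher. Of all genes, 7.77% were that much lower and 15.2% that much higher in the HMW mock pair. In LMW RNA 14 fell and none rose, with a median of -0.68, where 5.1% of all genes were called lower. The LMW median was -1.04 in the 10 Gy pair alone, with 27 members at least 2-fold lower, where 13.6% of all genes were. In the mock pair alone the LMW median was -0.35, with 10 members at least 2-fold lower and 3 at least 2-fold higher. Of all genes, 6.6% were that much lower and 16.7% that much higher in the LMW mock pair. The LMW median therefore moved with the pair used. All 31 and all 14 were among the 45 that fell in Total RNA, which held most of the 51 members, so this overlap was likely beforehand. In both polysome lists were 12 genes. In simulated data the knockdown fits recovered 100% of 2-fold changes in Total RNA, 20% in HMW and 18% in LMW RNA. The count in Total RNA therefore cannot be set against those in the pools. In HMW RNA 11 of 13 helicase genes fell, 6 of 11 origin genes, 3 of 9 polymerase genes, 5 of 9 clamp genes, TIMELESS, 4 of 4 nucleotide genes and UHRF1. Between MCM8 (-0.26 ± 0.41, adjusted p = 0.819) and GINS2 (-2.43 ± 0.42, adjusted p = 6.7e-07) lay the helicase genes, and between ORC2 (0.33 ± 0.42, adjusted p = 0.76) and ORC1 (-2.52 ± 0.42, adjusted p = 2.2e-07) the origin genes. Between POLA1 (0.02 ± 0.41, adjusted p = 0.991) and POLA2 (-1.80 ± 0.42, adjusted p = 0.000558) lay the polymerase genes, and between RFC1 (0.22 ± 0.42, adjusted p = 0.852) and RFC5 (-1.75 ± 0.42, adjusted p = 0.00103) the clamp, loader and RPA genes. Between RRM1 (-0.95 ± 0.26, adjusted p = 0.00555) and TK1 (-2.42 ± 0.42, adjusted p = 9.18e-07) lay the nucleotide genes, between CHAF1A (-0.71 ± 0.42, adjusted p = 0.349) and UHRF1 (-1.997 ± 0.30, adjusted p = 1.25e-08) the chromatin genes, and TIPIN (-0.26 ± 0.42, adjusted p = 0.822) and TIMELESS (-1.19 ± 0.42, adjusted p = 0.0465) were the fork genes. ORC1, the origin subunit whose level cycles, fell most of all members, followed by GINS2, TK1 and CDT1 (-2.29 ± 0.42, adjusted p = 4.94e-06). The genes that fell in LMW RNA were GINS1, GINS2, GINS3, ORC6, CDT1, GMNN, POLE2, PCNA, RFC2, RFC5, RPA3, RRM2, TYMS and TK1. Between MCM6 (0.03 ± 0.45, adjusted p = 0.981) and GINS2 (-2.67 ± 0.46, adjusted p = 8.68e-07) lay the helicase genes, and between ORC3 (0.76 ± 0.41, adjusted p = 0.22) and GMNN (-1.80 ± 0.44, adjusted p = 0.00106) the origin genes. Between POLA1 (1.02 ± 0.44, adjusted p = 0.0947) and POLE2 (-1.62 ± 0.40, adjusted p = 0.00116) lay the polymerase genes, and between RFC1 (0.32 ± 0.40, adjusted p = 0.669) and RFC5 (-1.60 ± 0.46, adjusted p = 0.00687) the clamp, loader and RPA genes. Between RRM1 (0.35 ± 0.39, adjusted p = 0.619) and TK1 (-2.17 ± 0.47, adjusted p = 0.000142) lay the nucleotide genes, between CHAF1A (0.22 ± 0.47, adjusted p = 0.826) and UHRF1 (-1.04 ± 0.41, adjusted p = 0.0691) the chromatin genes, and TIMELESS (-0.48 ± 0.47, adjusted p = 0.56) and TIPIN (-0.81 ± 0.45, adjusted p = 0.222) were the fork genes. GMNN, the inhibitor of CDT1, was the lowest origin gene. In these fits the spread is shared by all genes and a gene's own residual does not enter its standard error. RFC5 fell in both pools, and with the median of its probe sets neither call was made (-0.62, adjusted p = 0.431 in HMW and -1.02, adjusted p = 0.0526 in LMW). The TIMELESS call in HMW RNA was lost with the median of its probe sets (-0.69, adjusted p = 0.313). So were the GINS2 calls in HMW (-0.19, adjusted p = 0.874) and LMW RNA (0.06, adjusted p = 0.95). The CDT1 call in LMW RNA was lost in the same way (-0.93, adjusted p = 0.146). Mitosis genes fell in 10 of 18 cases in HMW and 5 of 18 in LMW RNA, and their part was not tested.

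The MCM2 to MCM7 ring genes differed between the pools. All 6 fell in HMW RNA and none was called in LMW RNA. HMW levels of MCM3 were 9.13 in 4GKD 10 Gy and 9.86 in 4GKD mock cells, against 11.41 in WT 10 Gy and 11.79 in WT mock cells. LMW levels of MCM3 were 8.76 in 4GKD 10 Gy and 9.66 in 4GKD mock cells, against 9.24 in WT 10 Gy and 10.37 in WT mock cells. Total levels of MCM3 were 7.78 in 4GKD 10 Gy and 8.59 in 4GKD mock cells, against 9.54 in WT 10 Gy and 10.00 in WT mock cells. MCM3 genotypes stood apart in HMW and Total RNA. In LMW RNA they overlapped across doses, with 4GKD minus WT at -0.47 for 10 Gy and -0.71 for mock cells. HMW levels of MCM6 were 9.44 in 4GKD 10 Gy and 10.57 in 4GKD mock cells, against 11.11 in WT 10 Gy and 11.77 in WT mock cells. LMW levels of MCM6 were 9.26 in 4GKD 10 Gy and 10.50 in 4GKD mock cells, against 9.15 in WT 10 Gy and 10.54 in WT mock cells. Total levels of MCM6 were 8.12 in 4GKD 10 Gy and 9.30 in 4GKD mock cells, against 9.96 in WT 10 Gy and 10.80 in WT mock cells. MCM6 genotypes stood apart in HMW and Total RNA too. Its LMW values paired by dose and not by genotype, with 4GKD minus WT at 0.11 for 10 Gy and -0.04 for mock cells. HMW levels of MCM7 were 9.60 in 4GKD 10 Gy and 10.38 in 4GKD mock cells, against 11.22 in WT 10 Gy and 11.75 in WT mock cells. LMW levels of MCM7 were 9.88 in 4GKD 10 Gy and 10.90 in 4GKD mock cells, against 9.93 in WT 10 Gy and 11.17 in WT mock cells. Total levels of MCM7 were 8.13 in 4GKD 10 Gy and 9.15 in 4GKD mock cells, against 9.62 in WT 10 Gy and 9.97 in WT mock cells. MCM7 LMW values overlapped between 4GKD and WT cells across doses, with 4GKD minus WT at -0.05 for 10 Gy and -0.27 for mock cells. HMW levels of MCM4 were 8.66 in 4GKD 10 Gy and 9.36 in 4GKD mock cells, against 10.48 in WT 10 Gy and 10.37 in WT mock cells. LMW levels of MCM4 were 8.56 in 4GKD 10 Gy and 9.29 in 4GKD mock cells, against 9.04 in WT 10 Gy and 9.67 in WT mock cells. Total levels of MCM4 were 7.73 in 4GKD 10 Gy and 8.60 in 4GKD mock cells, against 9.26 in WT 10 Gy and 9.45 in WT mock cells. MCM4 genotypes also stood apart in HMW and Total RNA. In LMW RNA they overlapped across doses, with 4GKD minus WT at -0.48 for 10 Gy and -0.38 for mock cells. In HMW RNA the 4GKD minus WT difference was -2.23 ± 0.33, adjusted p = 3.78e-09 for MCM2, -2.10 ± 0.34, adjusted p = 1.35e-07 for MCM3, -2.03 ± 0.38, adjusted p = 9.42e-06 for MCM5 and -1.50 ± 0.33, adjusted p = 0.000271 for MCM7. In LMW RNA it was -0.24, adjusted p = 0.804 for MCM2, -0.59, adjusted p = 0.434 for MCM3, -0.23, adjusted p = 0.815 for MCM5 and 0.03, adjusted p = 0.981 for MCM6. The HMW minus LMW difference itself was therefore fitted between genotypes.

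**Figure D3:**
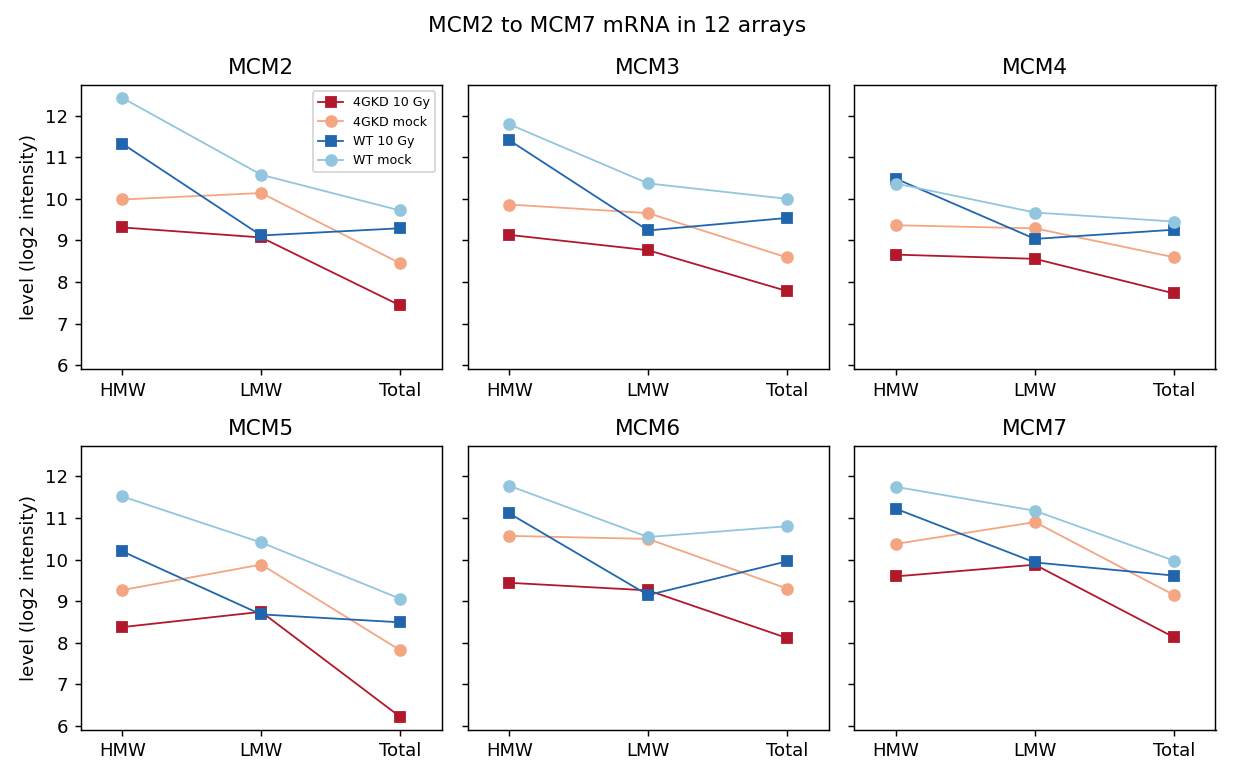
Level in log2 intensity of MCM2 to MCM7 in the 12 arrays, 1 panel per gene, with HMW, LMW and Total RNA along the horizontal axis. Each line joins the 3 arrays of 1 condition (dark red squares 4GKD 10 Gy, light red circles 4GKD mock, dark blue squares WT 10 Gy, light blue circles WT mock). WT lines drop between HMW and LMW in each gene, by 0.57 to 2.21. In 4GKD cells HMW minus LMW runs from -0.61 to 0.37, and the MCM5 and MCM7 lines rise to LMW in both 4GKD conditions.

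The medians of HMW minus LMW over the 6 ring genes were 0.14 in 4GKD 10 Gy and -0.04 in 4GKD mock cells, against 1.74 in WT 10 Gy and 1.17 in WT mock cells. Values of single genes ran from -0.61 to 0.37 in 4GKD cells and from 0.57 to 2.21 in WT cells, without overlap. Over all 51 members 13 had a lower HMW minus LMW difference in 4GKD cells and 1 a higher one, where 8.07% of all genes were called lower and 5.26% higher, and the members' median was -0.37, or -0.45 in the 10 Gy pair alone. Between GINS3 (0.46 ± 0.26, adjusted p = 0.219) and MCM2 (-1.98 ± 0.44, adjusted p = 0.000932) lay the helicase genes, and between GMNN (0.45 ± 0.30, adjusted p = 0.318) and ORC1 (-1.49 ± 0.38, adjusted p = 0.00353) the origin genes. Between PRIM1 (0.06 ± 0.34, adjusted p = 0.934) and POLD1 (-1.67 ± 0.32, adjusted p = 9.38e-05) lay the polymerase genes, and between RPA3 (0.73 ± 0.25, adjusted p = 0.0318) and RPA1 (-1.13 ± 0.40, adjusted p = 0.0399) the clamp, loader and RPA genes. Between TYMS (-0.09 ± 0.26, adjusted p = 0.862) and RRM1 (-1.30 ± 0.45, adjusted p = 0.0357) lay the nucleotide genes, between CHAF1A (-0.93 ± 0.34, adjusted p = 0.0463) and CHAF1B (-1.06 ± 0.35, adjusted p = 0.0262) the chromatin genes, and TIPIN (0.55 ± 0.35, adjusted p = 0.301) and TIMELESS (-0.70 ± 0.34, adjusted p = 0.145) were the fork genes. Called lower were MCM2, MCM3 (-1.51 ± 0.45, adjusted p = 0.0131), MCM5 (-1.80 ± 0.36, adjusted p = 0.00015), MCM6 (-1.47 ± 0.42, adjusted p = 0.0104) and MCM7 (-1.33 ± 0.33, adjusted p = 0.00313), and MCM4 missed the threshold (-0.98 ± 0.38, adjusted p = 0.0653). The other 8 were ORC1, CDT1, POLA2, POLD1, RPA1, RRM1, CHAF1A and CHAF1B. POLD1 is the catalytic subunit of polymerase delta. RPA3, the small subunit of the single-strand binding complex, was the member called higher. Without the WT mock arrays, the 10 Gy pair alone had a ring gene median of -1.79, with values from -1.97 for MCM2 to -1.34 for MCM4. The mock pair alone had a ring gene median of -1.19, with values from -2.003 for MCM2 to -0.62 for MCM4. Mitosis genes were lower in 3 of 18 cases, and their part was not tested.

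Genotypes were also compared in each pool relative to Total RNA. In the HMW minus Total difference 1 member, POLA1, was higher in 4GKD cells and none was lower, where 2.84% of all genes were called higher and 6 members had an unadjusted p below 0.05. The members' median was -0.008, or -0.0014 in the 10 Gy pair alone. The POLA1 call was lost with arrays centred on their median (adjusted p = 0.0914) and without an intensity trend (adjusted p = 0.0556). Between MCM10 (0.53 ± 0.39, adjusted p = 0.548) and MCM2 (-0.67 ± 0.55, adjusted p = 0.602) lay the helicase genes, and between CDC7 (0.76 ± 0.36, adjusted p = 0.275) and ORC1 (-0.67 ± 0.41, adjusted p = 0.443) the origin genes. Between POLA1 (1.23 ± 0.36, adjusted p = 0.0247) and POLD1 (-1.02 ± 0.43, adjusted p = 0.195) lay the polymerase genes, and between RFC1 (0.84 ± 0.46, adjusted p = 0.357) and RFC5 (-0.34 ± 0.35, adjusted p = 0.697) the clamp, loader and RPA genes. Between RRM2 (0.76 ± 0.35, adjusted p = 0.244) and TK1 (-0.43 ± 0.37, adjusted p = 0.635) lay the nucleotide genes, between CHAF1A (0.15 ± 0.35, adjusted p = 0.893) and UHRF1 (-0.24 ± 0.40, adjusted p = 0.842) the chromatin genes, and TIMELESS (-0.10 ± 0.35, adjusted p = 0.932) and TIPIN (-0.23 ± 0.36, adjusted p = 0.831) were the fork genes. In the LMW minus Total difference 9 members were higher in 4GKD cells and none lower, where 4.36% of all genes were called higher. The members' median was 0.55, or 0.40 in the 10 Gy pair alone. The 9 called members were MCM2, MCM3, MCM6, MCM10, CDC6, POLA1, RRM1, CHAF1A and CHAF1B. With arrays centred on their median 4 of these calls were lost, and without an intensity trend 3 were. In simulated data with 200 changed genes, 24.7% of the calls of this contrast were false. The same simulation recovered 8% of 2-fold changes. Between MCM10 (1.74 ± 0.35, adjusted p = 0.000174) and GINS2 (-0.60 ± 0.57, adjusted p = 0.587) lay the helicase genes, and between CDC6 (1.44 ± 0.39, adjusted p = 0.0102) and GMNN (-0.44 ± 0.34, adjusted p = 0.485) the origin genes. Between POLA1 (2.22 ± 0.65, adjusted p = 0.0202) and POLD2 (-0.63 ± 0.58, adjusted p = 0.567) lay the polymerase genes, and between RFC1 (0.95 ± 0.66, adjusted p = 0.425) and RPA3 (-0.67 ± 0.40, adjusted p = 0.33) the clamp, loader and RPA genes. Between RRM1 (1.78 ± 0.36, adjusted p = 0.000174) and TK1 (-0.18 ± 0.93, adjusted p = 0.945) lay the nucleotide genes, between CHAF1A (1.08 ± 0.33, adjusted p = 0.0267) and UHRF1 (0.72 ± 0.34, adjusted p = 0.182) the chromatin genes, and TIMELESS (0.60 ± 0.34, adjusted p = 0.291) and TIPIN (-0.77 ± 0.39, adjusted p = 0.226) were the fork genes. For the 6 ring genes the median LMW minus Total difference was 1.39 in 4GKD 10 Gy and 1.44 in 4GKD mock cells, against -0.20 in WT 10 Gy and 0.61 in WT mock cells. Their HMW minus Total medians were 1.41 in 4GKD 10 Gy and 1.27 in 4GKD mock cells, against 1.65 in WT 10 Gy and 1.78 in WT mock cells. These contrasts share arrays with the HMW minus LMW contrast. Mitosis genes were higher in 7 of 18 cases for HMW minus Total and 8 of 18 for LMW minus Total, and their part was not tested.

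Irradiation at 10 Gy was examined first over both genotypes. In Total RNA 1 of 51 members fell, MCM6 (-1.02 ± 0.11, adjusted p = 0.0119), and none rose, where 0.0492% of all genes were called lower. The members' median was -0.47, against -0.03 over all genes, and 36 members had an unadjusted p below 0.05. With arrays centred on their median 14 members fell. The MCM6 call was lost with the median of its probe sets (-0.78, adjusted p = 0.0873) and without an intensity trend (-1.02, adjusted p = 0.232). In LMW RNA no member was called, with a median of -0.36 and 12 members at an unadjusted p below 0.05, where 0.0295% of all genes were called lower. In HMW RNA no member was called, with a median of -0.34 and 10 members at an unadjusted p below 0.05, where 0.00985% of all genes were called lower. 

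The extremes of each role under 10 Gy over both genotypes were these. In Total RNA all roles had values mostly below 0. Between MCM8 (-0.40 ± 0.14, adjusted p = 0.272) and MCM10 (-1.20 ± 0.22, adjusted p = 0.0787) lay the helicase genes, and between ORC3 (0.13 ± 0.11, adjusted p = 0.679) and CDC6 (-1.25 ± 0.27, adjusted p = 0.0974) the origin genes. Between PRIM2 (-0.03 ± 0.19, adjusted p = 0.964) and POLE2 (-0.74 ± 0.19, adjusted p = 0.156) lay the polymerase genes, and between RFC1 (-0.11 ± 0.11, adjusted p = 0.734) and RFC5 (-0.61 ± 0.12, adjusted p = 0.0804) the clamp, loader and RPA genes. Between TYMS (-0.09 ± 0.11, adjusted p = 0.799) and RRM2 (-0.67 ± 0.17, adjusted p = 0.156) lay the nucleotide genes, between CHAF1A (-0.31 ± 0.10, adjusted p = 0.255) and UHRF1 (-0.87 ± 0.14, adjusted p = 0.0545) the chromatin genes, and TIMELESS (-0.47 ± 0.14, adjusted p = 0.219) and TIPIN (-0.54 ± 0.10, adjusted p = 0.0807) were the fork genes. CDC6 was the lowest of all members. In LMW RNA MCM5 was lowest. Between GINS4 (0.70 ± 0.45, adjusted p = 0.814) and MCM5 (-1.43 ± 0.47, adjusted p = 0.175) lay the helicase genes, and between ORC3 (0.55 ± 0.41, adjusted p = 0.887) and CDC6 (-0.95 ± 0.43, adjusted p = 0.503) the origin genes. Between POLA1 (0.23 ± 0.44, adjusted p = 0.973) and POLE2 (-0.82 ± 0.40, adjusted p = 0.586) lay the polymerase genes, and between RFC1 (0.20 ± 0.40, adjusted p = 0.976) and RFC2 (-0.49 ± 0.47, adjusted p = 0.936) the clamp, loader and RPA genes. Between TYMS (0.03 ± 0.30, adjusted p = 0.996) and TK1 (-1.24 ± 0.47, adjusted p = 0.328) lay the nucleotide genes, between CHAF1A (-0.36 ± 0.47, adjusted p = 0.954) and UHRF1 (-1.21 ± 0.41, adjusted p = 0.221) the chromatin genes, and TIPIN (-0.63 ± 0.45, adjusted p = 0.866) and TIMELESS (-0.65 ± 0.47, adjusted p = 0.871) were the fork genes. In HMW RNA GINS2 was lowest and RFC1 highest. Between MCM8 (0.50 ± 0.41, adjusted p = 0.871) and GINS2 (-1.27 ± 0.42, adjusted p = 0.162) lay the helicase genes, and between ORC3 (0.66 ± 0.42, adjusted p = 0.741) and CDT1 (-0.92 ± 0.42, adjusted p = 0.509) the origin genes. Between POLD3 (0.24 ± 0.42, adjusted p = 0.957) and POLE (-0.54 ± 0.42, adjusted p = 0.854) lay the polymerase genes, and between RFC1 (1.13 ± 0.42, adjusted p = 0.28) and RFC2 (-0.61 ± 0.41, adjusted p = 0.772) the clamp, loader and RPA genes. Between RRM1 (0.07 ± 0.26, adjusted p = 0.983) and TK1 (-0.94 ± 0.42, adjusted p = 0.486) lay the nucleotide genes, between CHAF1A (-0.07 ± 0.42, adjusted p = 0.988) and UHRF1 (-0.94 ± 0.30, adjusted p = 0.159) the chromatin genes, and TIMELESS (-0.25 ± 0.42, adjusted p = 0.953) and TIPIN (-0.54 ± 0.42, adjusted p = 0.854) were the fork genes.

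Within a genotype the 10 Gy comparison rests on 1 array against 1, so only sizes are given. In 4GKD Total RNA 15 of 51 members were at least 2-fold lower after 10 Gy and none higher, with a median of -0.76, where 0.945% of all genes were at least 2-fold lower. In WT Total RNA no member was at least 2-fold lower, with a median of -0.19, where 0.00985% of all genes were. CDC6 differed by -1.96 in 4GKD and -0.53 in WT cells, MCM10 by -1.79 in 4GKD and -0.60 in WT cells and CDC45, the helicase cofactor, by -1.40 in 4GKD and -0.02 in WT cells. In LMW RNA of 4GKD cells 16 members were at least 2-fold lower and none higher (median -0.73), where 1.1% of all genes were lower. In LMW RNA of WT cells 8 were lower and 5 higher (median 0.01), where 4.14% of all genes were lower and 15.9% higher. In HMW RNA of 4GKD cells 7 members were lower and none higher (median -0.65), where 0.512% of all genes were lower. In HMW RNA of WT cells 4 were lower and 3 higher (median 0.07), where 2.2% of all genes were lower and 15.8% higher. These WT polysome comparisons use the WT mock arrays that stood apart.

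**Figure D4:**
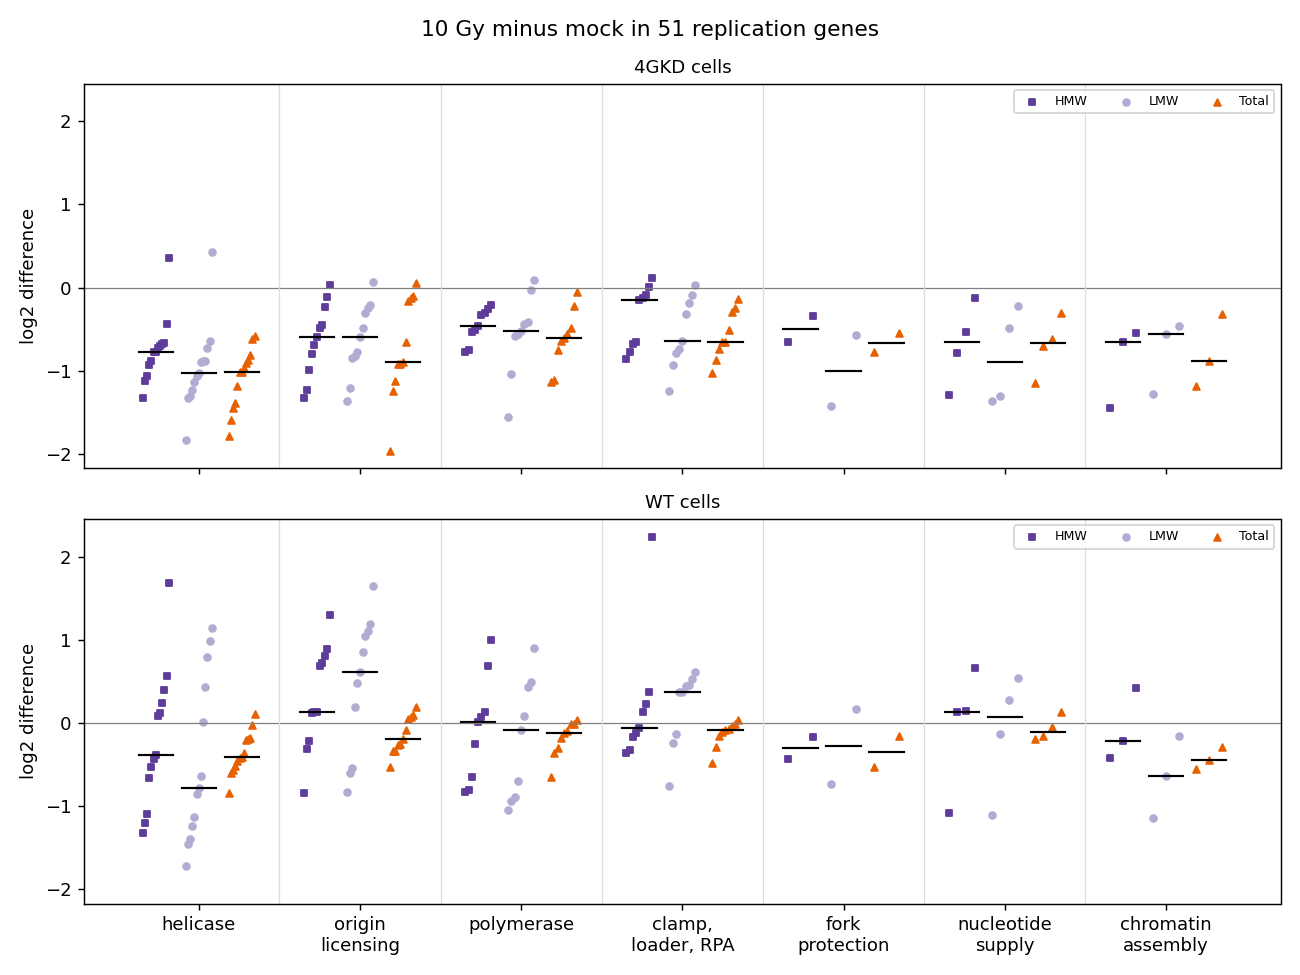
Log2 difference, 10 Gy minus mock, of the 51 replication genes by role, with 4GKD cells in the upper panel and WT cells in the lower. Each point is 1 gene in HMW, LMW or Total RNA (purple squares, pale circles and orange triangles), without replicates, and black bars are medians. Nearly all 4GKD points lie below 0, the WT Total points lie between -0.84 and 0.20, and the WT polysome points spread from -1.73 to 2.24.

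The ring genes' median difference after 10 Gy was below 0 in each preparation of both genotypes. The medians were -0.76 in HMW, -1.05 in LMW and -1.01 in Total RNA of 4GKD cells, and -0.60 in HMW, -1.32 in LMW and -0.44 in Total RNA of WT cells. In WT LMW RNA 5 of the 6 were at least 2-fold lower, where 4.14% of all genes were. MCM5 differed in LMW RNA by -1.14 in 4GKD and -1.73 in WT cells, and MCM2 by -1.07 in 4GKD and -1.46 in WT cells. In WT polysomes 3 of 51 members in HMW and 5 of 51 in LMW RNA were at least 2-fold higher after 10 Gy. The shares of all genes were 15.8% and 15.9%, and these values use the WT mock arrays that stood apart. RFC1 differed in HMW RNA by 0.01 in 4GKD and 2.24 in WT cells, MCM8 by -0.68 in 4GKD and 1.69 in WT cells and ORC3 by 0.03 in 4GKD and 1.30 in WT cells. In LMW RNA DBF4 differed by -0.85 in 4GKD and 1.64 in WT cells, ORC6, a small origin subunit, by -0.49 in 4GKD and 1.19 in WT cells and CDC7 by -0.59 in 4GKD and 1.11 in WT cells. Differences between the genotypes' responses were not tested, since they are the residual of the fit. In 4GKD cells 14 of 18 mitosis genes were at least 2-fold lower in Total RNA, 11 in LMW and 10 in HMW RNA, against 0, 1 and 0 in WT cells. CDKN1A rose over both genotypes in Total RNA by 0.76, adjusted p = 0.00999. The part of these genes was not tested.

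Replication genes outside the member list, 38 of 41 measured above the filter, were set beside them. In HMW against Total RNA 18 were called higher and 3 lower, with TOP2A, the decatenating topoisomerase, (1.63, adjusted p = 0.0253) and CHTF18, an alternative clamp loader subunit, (1.51, adjusted p = 0.00335) highest and SAMHD1, a nucleotide hydrolase, (-0.81, adjusted p = 0.105) and POLE4, a small subunit of polymerase epsilon, (-0.75, adjusted p = 0.0194) lowest. In LMW against Total RNA 13 were called higher and 8 lower, with RNASEH2A, the catalytic subunit of ribonuclease H2, (1.92, adjusted p = 0.000915) and ASF1B, a histone chaperone, (1.81, adjusted p = 0.00135) highest and SAMHD1 (-1.46, adjusted p = 0.00431) and WDHD1, which anchors polymerase alpha, (-1.29, adjusted p = 0.00699) lowest. In HMW against LMW RNA 13 were called higher and 9 lower, with TOP2A (2.87, adjusted p = 0.00516) and DNA2, a nuclease and helicase, (1.71, adjusted p = 0.0017) highest and RNASEH2A (-0.78, adjusted p = 0.00548) and RNASEH2C, a ribonuclease H2 subunit, (-0.78, adjusted p = 0.00567) lowest. The WT mock LMW array, which stood apart, held the lowest of the 12 TOP2A values. Under knockdown in Total RNA 4 were called higher and 27 lower, with TOP1, a topoisomerase, (0.54, adjusted p = 0.000562) and ASF1A, the paralogue of ASF1B, (0.50, adjusted p = 0.0047) highest and TOP2A (-2.26, adjusted p = 3.38e-05) and CCNE2, an S phase cyclin, (-2.06, adjusted p = 2.52e-05) lowest. Under knockdown in HMW RNA 2 were called higher and 16 lower, with TOP1 (1.26, adjusted p = 0.00118) and SAMHD1 (1.18, adjusted p = 0.0469) highest and ASF1B (-2.29, adjusted p = 4.39e-06) and FEN1, the flap nuclease, (-2.02, adjusted p = 1.35e-07) lowest. Under knockdown in LMW RNA 4 were called higher and 14 lower, with TOP2A (2.08, adjusted p = 0.000135) and TOP1 (1.76, adjusted p = 0.00119) highest and DCK, a nucleoside salvage kinase, (-2.32, adjusted p = 6.64e-06) and ASF1B (-2.30, adjusted p = 3.81e-05) lowest. LMW levels of TOP2A were 8.94 in 4GKD 10 Gy and 9.42 in 4GKD mock cells, against 8.37 in WT 10 Gy and 5.82 in WT mock cells, so most of its LMW difference rests on the WT mock array. For the knockdown difference in HMW minus LMW 1 was called higher and 4 lower, with RNASEH2B, a ribonuclease H2 subunit, (0.90, adjusted p = 0.088) and DCK (0.87, adjusted p = 0.042) highest and TOP2A (-2.24, adjusted p = 0.00203) and CHTF18 (-1.78, adjusted p = 0.000141) lowest. For that in HMW minus Total 1 was called higher and 0 lower, with TOP2A (2.10, adjusted p = 0.000326) and WDHD1 (0.80, adjusted p = 0.235) highest and CHTF18 (-0.94, adjusted p = 0.238) and CCNE1, an S phase cyclin, (-0.89, adjusted p = 0.146) lowest. For that in LMW minus Total 3 were called higher and 0 lower, with TOP2A (4.34, adjusted p = 4.44e-09) and SUPT16H, a subunit of the FACT histone chaperone, (1.73, adjusted p = 0.0426) highest and ASF1A (-1.35, adjusted p = 0.121) and DCK (-0.89, adjusted p = 0.153) lowest. After 10 Gy RRM2B in LMW RNA was the 1 call. With 10 Gy in Total RNA 0 were called higher and 0 lower, with RRM2B, a p53-induced ribonucleotide reductase subunit, (0.55, adjusted p = 0.0792) and POLD4 (0.26, adjusted p = 0.426) highest and CCNE2 (-1.07, adjusted p = 0.0545) and CDC25A, a phosphatase that activates cyclin-dependent kinases, (-0.72, adjusted p = 0.101) lowest. With 10 Gy in LMW RNA 1 was called higher and 0 lower, with RRM2B (2.08, adjusted p = 0.0102) and TOP2A (1.04, adjusted p = 0.48) highest and ASF1B (-1.002, adjusted p = 0.55) and DNMT1, the maintenance DNA methyltransferase, (-0.69, adjusted p = 0.818) lowest. With 10 Gy in HMW RNA 0 were called higher and 0 lower, with RRM2B (1.14, adjusted p = 0.263) and SAMHD1 (0.84, adjusted p = 0.582) highest and CCNE2 (-0.78, adjusted p = 0.626) and ASF1B (-0.77, adjusted p = 0.637) lowest.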

How the data were processed

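RNA of 12 samples was hybridised to human Affymetrix arrays, 1 array per condition and preparation. The deposited values are linear RMA intensities, per the submitters' processing notes, with other steps by the authors unstated there. They were turned into log2 values. Of 54675 probe sets, 41097 had 1 gene symbol in the platform annotation, 1801 had several and 11777 were not listed. Genes were tested with limma 3.58.1 in R 4.3.3 (trended eBayes, Benjamini-Hochberg threshold 0.05), after testing on simulated data. Preparations were compared over 8 arrays with condition as a block, and genotype and dose were fitted additively over the 4 arrays of a preparation, or over their 4 differences. RMA compresses low values, and the number of arrays limits the precision. Any member could be named. Fits are given for the highest and lowest member of each role in each comparison, all 12 values for the role extremes of HMW against Total, the largest knockdown change in Total and the MCM ring genes, and, of other replication genes, the 2 highest and 2 lowest. Members and lists were chosen with earlier results of these data known. Alternatives changed the filter, probe set choice, centring, trend, block and arrays fitted.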

Additional observations from a re-analysis of the deposited data

Results flagged for a closer look

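Among 4 pairs of arrays, 1 pair lay far from the other 3 for 3 of 51 members in HMW against Total RNA, 5 of 51 in LMW against Total and 3 of 51 in HMW against LMW, and chance gives about 1 in 20. In HMW minus Total, the WT mock pair stood apart at 1.30 for GINS2, -2.16 for RFC1 and 1.80 for TK1. In LMW minus Total, WT mock cells stood apart at -1.82 for MCM8 and -1.22 for POLD3, and WT 10 Gy cells at 1.45 for GINS1, 1.02 for CDT1 and 0.47 for POLD1. In HMW minus LMW, WT 10 Gy cells stood apart at 0.21 for DBF4, WT mock cells at 0.48 for RRM2 and 4GKD mock cells at -1.08 for TK1.

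By the test of the difference between genotypes, 1 member was higher in 4GKD than in WT cells in HMW minus Total, 9 in LMW minus Total and 1 in HMW minus LMW, where 13 were lower. Of all genes, 2.84%, 4.36% and 5.26% were called higher in these contrasts in that order, and 8.07% lower in HMW minus LMW. In simulated data 24.7% of the calls in LMW minus Total were false. Some members moved one way after 10 Gy in all 3 preparations of 4GKD cells and the other way in all 3 of WT cells. The mean 10 Gy differences were -0.17 in 4GKD and 0.21 in WT cells for ORC4, -0.66 and 0.69 for ORC6, and -0.22 and 0.18 for TYMS, and these differences were not tested.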

How the results depend on the processing

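In alternative fits of called members, 1294 kept the call, 263 lost it and 6 turned its sign. Fits by the median of a gene's probe sets reversed RFC5 in HMW against Total (-0.41), GINS2 under knockdown in Total (0.16) and LMW (0.057), and ORC2 in knockdown Total (-0.0043), and fits without x and s probe sets reversed GINS2 in Total (0.18) and LMW (0.057). Without the condition block, 4 members were higher in HMW than in Total, 7 higher and 3 lower in LMW than in Total, and 1 higher and 0 lower in HMW than in LMW. Leaving out 1 pair at a time gave 23 to 40 members higher in HMW than in Total (medians 0.71 to 0.84), 13 to 22 higher and 2 to 5 lower in LMW than in Total (medians 0.35 to 0.58), and 6 to 12 higher and 1 to 4 lower in HMW than in LMW (medians 0.26 to 0.47). Without x and s probe sets 36 members were measured: 2 were lower in LMW than in Total, 7 higher in HMW than in LMW, 18 fell under knockdown in HMW, 5 were higher for LMW minus Total (median 0.39), 7 lower for HMW minus LMW (median -0.26), the HMW minus Total median was -0.13, and 2 were at least 2-fold lower after 10 Gy in WT HMW. With arrays centred on their median 3 members were lower in LMW than in Total, 14 fell after 10 Gy in Total, 0 were higher for knockdown HMW minus Total and 5 for LMW minus Total (median 0.44), the HMW minus LMW median was -0.28, and 7 were at least 2-fold lower after 10 Gy in WT HMW. Centring moved the median of all genes to 0.18 in LMW against Total, where it was 0.01, and to -0.08 for 10 Gy in HMW, where it was 0.05. The median of probe sets (48 members) gave 2 members lower in HMW than in LMW, 0 falling after 10 Gy in Total and a knockdown HMW minus LMW median of -0.47. That median was -0.31 with no filter and with the filter at 7, and 10 Gy in Total then had 6 and 7 falling members. Without a trend, 10 Gy in Total and knockdown in HMW minus Total had 0 calls. All 12 arrays in 1 fit gave 8 members falling under knockdown in Total (107 genes in all, against 4113), 0 after 10 Gy in Total and 0 for HMW minus Total. Single pairs gave knockdown medians of -0.45 (10 Gy) and -0.51 (mock) for HMW minus LMW, 0.40 (10 Gy) for LMW minus Total and -0.05 (mock) for HMW minus Total. The cause of these shifts was not tested. Preparations were paired by condition in the fits above. Pairing by replicate number could not be fitted, since each condition has 1 array per preparation. The planned description of members by protein length was not run, since no protein table was used here. Values under 6, as for POLA1, PRIM2 and POLE2, limit what their differences show.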
